A study of Mus musculus with 8 samples.

Results

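The transcriptional response of wild-type (WT) dendritic cells (DCs) to ansamitocin-P3 (AP3) was examined gene by gene. The members were all genes other than microRNAs and snoRNAs that had a usable value in both WT groups and reached at least 1 FPKM in control or treated cells, which left 11127 of 23356 genes. Bone marrow cells of WT mice of C57BL/6 background (C57BL/6N in the study's methods) were cultured for 6 days with GM-CSF (10 ng/ml) and IL-4 (10 ng/ml), and then kept without AP3 (control) or with 100 nM AP3 for 5 h. The same cultures, drug dose and time were used for cells of GEF-H1-/- mice, which lack the product of *Arhgef2*, and their values are set beside those of WT cells at the end. Each of the 4 groups consisted of 2 RNA-seq libraries, and the labels do not say whether these came from separate mice or cultures. Levels were deposited as FPKM, the number of sequenced fragments corrected for transcript length and for the total of the library. The deposited table merges both libraries of a group into 1 FPKM for each gene. With 1 value per group there was no test against the spread between replicates, and no SD, n or p-value belongs to any value given here. The error of a level is the 95% interval that Cuffdiff deposited with it, which is given in parentheses. The median interval spanned 45.3% of the level in control and 45.2% in treated cells.

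AP3 is a maytansinoid, a small molecule that binds tubulin and causes microtubules to fall apart. GEF-H1 is a guanine nucleotide exchange factor for RhoA that is held inactive on microtubules and is released when they depolymerize. DCs take up antigen, and in response to microbial or danger signals they mature, which means that they secrete cytokines, raise costimulatory molecules and turn towards the lymph node. *Arhgef2* itself was at 42.3 FPKM in control and 45.9 FPKM in treated WT cells.

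On the deposited scale AP3 raised more genes than it lowered, and with both groups set to equal totals it lowered more than it raised. A gene was called higher or lower when the log2 ratio of treated to control FPKM, each plus 1, was past 1 or -1 and the intervals of both groups did not overlap. By this rule 381 of 11127 genes (3.42%) rose and 125 (1.12%) fell, 506 in all (4.55%). The rises were also the larger changes, since 64 genes rose by more than 2 on the log2 scale while 2 fell by as much. The median log2 ratio was 1.35 among genes called higher and -1.21 among genes called lower, and it was 0.00 over all members. Together, the genes called higher accounted for 2.96% of the summed FPKM of all members in control cells and for 7.14% in treated cells. Those called lower went from 0.719% to 0.244%. The summed FPKM of all members was not the same in both groups, at 553028 in control and 653030 in treated cells, and the 10 genes with the largest gains held 21.0% of the FPKM gained over all genes that were higher. Rescaled to equal totals, the groups had a median log2 ratio of -0.21, with 241 genes called higher and 329 called lower. All of these 241 genes were among the 381 called higher on the deposited scale, which is the scale used below unless equal totals are named. Bulk RNA does not separate fewer cells of a type from less RNA per cell.

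**Figure D1:**
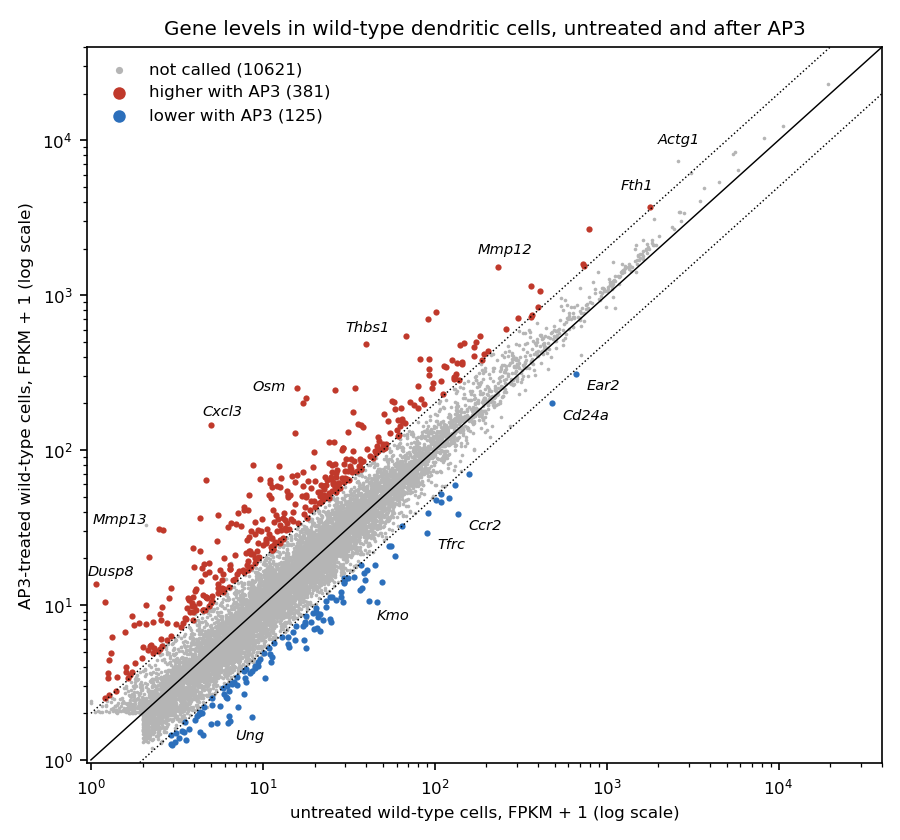
Level of each of the 11127 genes in untreated (horizontal axis) and AP3-treated (vertical axis) WT cells, as pooled FPKM + 1 on log scales. Each point is 1 gene, the solid line marks equal levels, and the dotted lines mark a ratio of 2. The 381 genes called higher (red) spread farther from the solid line than the 125 called lower (blue).

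The cultures held the transcripts of DCs beside those of granulocytes. All 10 DC markers on the list used were among the members, with a summed level of 5734 FPKM in control and 7484 FPKM in treated cells. The class II chain *H2-Aa* was at 925 and 987 FPKM and the integrin *Itgax* (CD11c) at 102 and 132 FPKM, whereas *Flt3* and *Cd209a* were at 2.10 and 1.81 FPKM in control cells. All 9 neutrophil markers found in the table were members as well, with sums of 2571 and 3089 FPKM, of which *Ngp* made up 1707 and 2135 FPKM. The summed level was 232 and 176 FPKM for 8 of 9 macrophage markers, 28.0 and 32.3 FPKM for 8 of 10 T cell markers, and 16.2 and 9.89 FPKM for 4 of 10 B cell markers. It was 147 and 185 FPKM for 6 of 10 NK cell markers, and 198 and 203 FPKM for 7 of 10 markers of mast cells or basophils. Markers of erythroid cells (2 members), fibroblasts (1) and plasmacytoid DCs (7) summed to 8.05 and 13.4, 118 and 128, and 182 and 170 FPKM. Among all these markers, *Ccr7* was called higher and the macrophage gene *Mertk* lower, and no other marker was called. With equal totals *Ccr7* was not called, and 1 DC marker, *Ciita*, and 2 macrophage markers were called lower. On the deposited scale the median log2 ratio was 0.23 for the DC markers and -0.53 for the macrophage markers. Of the 8 macrophage markers, 7 had ratios below 0. The part of these other cells in the results below was not tested.

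The 15 largest rises included genes of secreted factors. *Osm*, the gene of the cytokine oncostatin M (chromosome 11, 4236785 to 4241026 in GRCm38), went from 16.9 FPKM (13.4 to 20.4) to 217 (172 to 263), a log2 ratio of 3.61. *Thbs1*, which encodes the matrix glycoprotein thrombospondin-1, went from 38.7 (31.2 to 46.2) to 482 FPKM (378 to 585), a log2 ratio of 3.60. *Inhba*, the gene of the subunit that forms activin A, rose from 16.2 (13 to 19.4) to 199 FPKM (163 to 235). For each of these genes the lower bound in treated cells was several times the upper bound in control cells. *Gdf15*, a cytokine of the TGF-beta family that many stresses induce, went from 1.18 to 19.4 FPKM (log2 ratio 3.22). *Sdcbp2*, which encodes the adaptor syntenin-2, went from 1.48 to 29.9 FPKM (3.64), and the kinase gene *Stk38l* from 3.33 to 35.3 FPKM (3.07). *Gm13889*, a predicted gene, went from 0.202 to 9.49 FPKM (3.13).

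Among the 15 largest falls were genes of DNA repair, metabolism and sensing of the surroundings. *Ung*, which encodes the uracil-DNA glycosylase that starts base excision repair, went from 7.66 FPKM (5.61 to 9.78) to 0.895 (0.549 to 1.24), the lowest log2 ratio of all members at -2.19. *Kmo*, the gene of kynurenine 3-monooxygenase in tryptophan breakdown, went from 40.2 (31.4 to 48.4) to 9.60 FPKM (7.55 to 11.7). *Tifab* went from 45.1 to 9.43 FPKM (-2.14), and *Mertk*, a receptor for the uptake of dying cells, from 5.46 to 0.778 FPKM (-1.86). These falls were smaller on the log2 scale than the rises above, and 6 of the 15 genes were under 10 FPKM in control cells. Higher starting levels were found for *Rassf4*, at 48.5 FPKM in control and 13.1 in treated cells, and for *Fgd2*, an exchange factor for Cdc42, at 24 and 6.77 FPKM. *Slc46a3* encodes a lysosomal membrane transporter known to carry maytansinoid catabolites of antibody-drug conjugates, and its level went from 9.29 (6.99 to 11.5) to 2.40 FPKM (1.70 to 3.09), a log2 ratio of -1.60.

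**Figure D2:**
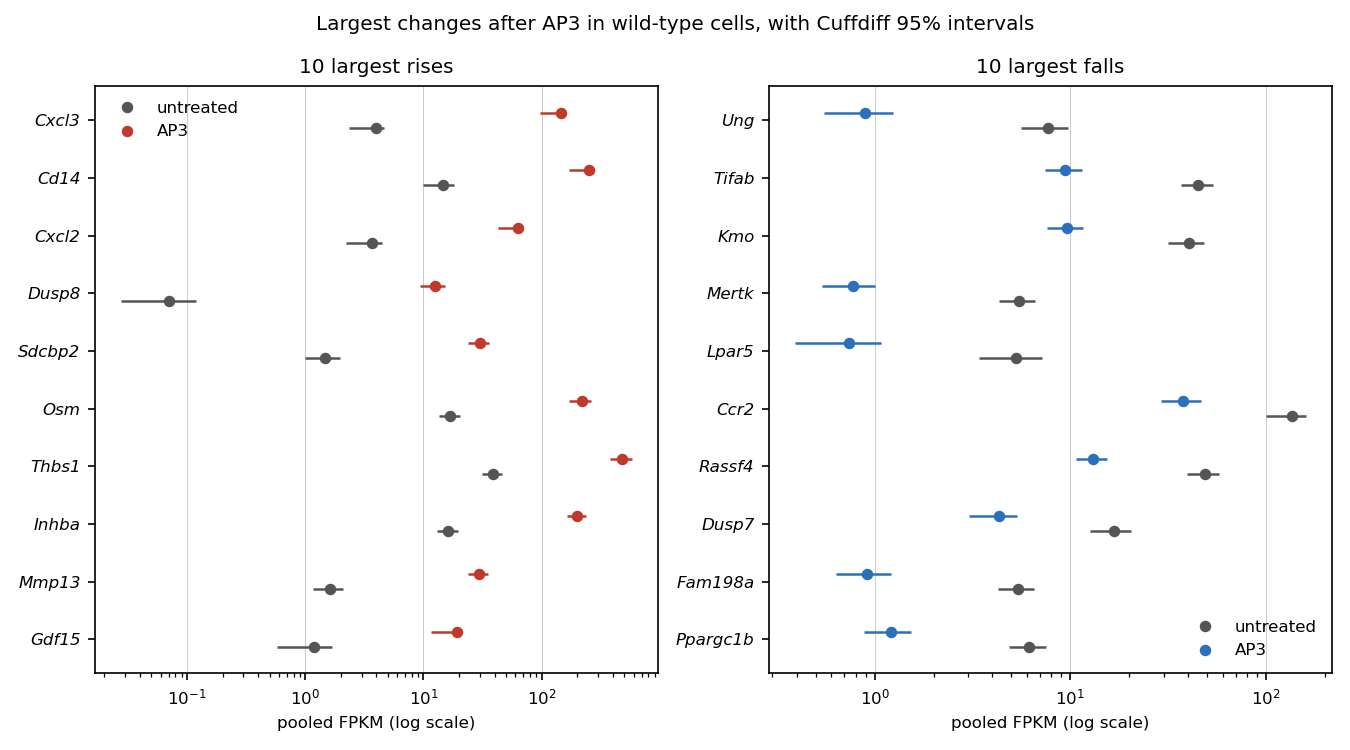
Pooled FPKM on a log scale in untreated (grey) and AP3-treated WT cells (red or blue) for the 10 largest rises (left) and 10 largest falls (right) among called genes of at least 5 FPKM in 1 group. Points are FPKM and lines the 95% intervals of Cuffdiff, which stay apart in every gene shown.

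Several chemokine genes that rose are neighbours in the genome. Of 7 CXC and CX3C chemokine genes among the members, 5 rose and none fell, with a median log2 ratio of 1.16. *Cxcl3*, which encodes a ligand of the neutrophil receptor CXCR2, went from 3.97 FPKM (2.36 to 4.68) to 145 (97.6 to 157), the largest log2 ratio of all members at 4.87. On chromosome 5 its nearest members are *Pf4*, which was at 24.5 and 30.2 FPKM, and *Cxcl2*, which went from 3.68 to 63.4 FPKM (3.78). *Ppbp*, another CXCR2 ligand on the far side of *Pf4*, rose from 18 to 46.0 FPKM. *Cxcl16*, a membrane-bound chemokine, rose from 26.6 to 60.7 FPKM and *Cxcl10*, an attractant of T cells, from 1.51 to 4.19 FPKM. With equal totals 3 genes of this list were called, without *Cxcl16* and *Cxcl10*. Among CC chemokines, 6 of 12 rose, with a median of 1.25, and all 6 lie in 2 stretches of chromosome 11. *Ccl7*, an attractant of monocytes next to *Ccl2*, went from 10.0 (6.43 to 12.2) to 62.7 FPKM (42.6 to 74.2). In the other stretch *Ccl9*, *Ccl6*, *Ccl3* and *Ccl4* rose by 1.59 to 2.06, while *Ccl5* at its edge was at 492 and 599 FPKM (0.28). The chemokines with the highest FPKM in control cells, *Ccl17* and *Ccl22*, which attract T cells that carry CCR4, were at 5778 and 2685 FPKM and had log2 ratios of 0.14 and 0.36. The upstream sequences of *Cxcl3* (chr5:90785851-90786100, plus strand) and *Cxcl2* (chr5:90903649-90903898, plus strand) are shown because these neighbours had the highest and the third highest log2 ratio. Each is the RefSeq sequence (GRCm38.p6) of the 250 bases before the start, 5′ to 3′, with matches to a kappaB site, to TATAAA or to the motifs named further on in capitals.
Cxcl3: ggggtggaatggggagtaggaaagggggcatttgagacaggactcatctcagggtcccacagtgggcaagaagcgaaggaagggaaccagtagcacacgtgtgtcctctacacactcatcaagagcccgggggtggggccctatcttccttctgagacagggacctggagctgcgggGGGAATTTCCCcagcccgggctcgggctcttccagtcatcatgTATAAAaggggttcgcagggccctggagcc
Cxcl2: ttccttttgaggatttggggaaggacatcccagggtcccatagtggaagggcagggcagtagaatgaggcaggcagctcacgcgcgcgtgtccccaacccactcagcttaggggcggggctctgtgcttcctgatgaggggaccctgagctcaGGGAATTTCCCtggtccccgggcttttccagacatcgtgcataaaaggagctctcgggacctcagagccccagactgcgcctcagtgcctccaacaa
Both hold a palindromic match to the kappaB site, on both strands, from 73 to 63 bases before the start in *Cxcl3* and from 97 to 87 bases before the start in *Cxcl2*. A kappaB site was found on either strand in 4.49% of the 8968 members with a promoter sequence, and TATAAA in 6.11%.

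The list of IL-6 and IL-12 families and colony-stimulating factors, with receptors, held 4 rises and 1 fall among 18 members. Beside *Osm* and *Il6*, which went from 11.4 to 77.7 FPKM (2.67), *Csf1* (M-CSF, the growth factor of macrophages) went from 32.3 FPKM (25.9 to 38.7) to 176 (135 to 217), a ratio of 2.41. *Clcf1*, a ligand of the ciliary neurotrophic factor receptor, was at 0.902 FPKM in control and 6.62 in treated cells. *Lifr*, the receptor chain of leukemia inhibitory factor, fell from 5.13 to 1.55 FPKM (-1.27). The IL-12 family genes *Il12b* (0.927 and 1.69 FPKM) and *Ebi3* (ratio 0.23) were not called. The receptors of the culture's own cytokine, *Csf2rb* and *Csf2ra*, were at 218 and 94.5 FPKM in control cells and had ratios of 0.62 and 0.52. In the IL-1 family, 5 of 14 members rose, and these were both agonists and inhibitors. *Il1rn*, the IL-1 receptor antagonist, went from 101 (78.7 to 124) to 778 FPKM (632 to 924), a log2 ratio of 2.93 beside 3.21 for *Il1b* and 2.48 for *Il1a*. *Il1r2*, the decoy receptor that binds IL-1 without signalling, went from 59.9 to 156 FPKM (1.37). *Il1f9* (IL-36 gamma), which lies beside *Il1rn* on chromosome 2, went from 8.90 to 35.0 FPKM (1.86). In FPKM the antagonist stood above both *Il1b* (25.2 and 242 FPKM) and *Il1a* (6.75 and 42.1 FPKM) in control and in treated cells.

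Matrix proteases, their inhibitors and growth factors formed the list with the most rises. Of 45 genes listed, 33 were members, 16 rose and none fell, with a median log2 ratio of 1.11, and 15 rises, without *Hgf*, were counted with equal totals. *Mmp12*, macrophage elastase, went from 233 FPKM (180 to 282) to 1520 (1156 to 1883), one of the 10 largest gains in FPKM of all members. Next to it on chromosome 9, the collagenase gene *Mmp13* went from 1.63 (1.16 to 2.09) to 29.5 FPKM (23.9 to 35.0). *Plaur*, the urokinase receptor, rose from 90.4 to 699 FPKM (2.94), and *Serpinb2*, an inhibitor of urokinase, rose by 1.61. Urokinase itself (*Plau*) was at 94.6 and 61.4 FPKM (-0.61). The urokinase receptor and this inhibitor thus rose while the ratio of the protease was below 0. Growth factor genes that rose were *Hbegf* (7.28 to 50.6 FPKM), *Pdgfb* (3.32 to 21.4), *Vegfa* (3.86 to 17.8) and *Hgf* (8.46 to 19.5). Further protease genes that rose were *Adam8* (168 to 463 FPKM), *Mmp19* (3.83 to 15.4) and *Mmp14* (4.46 to 11.9). *Mmp9* and *Mmp8*, which neutrophils store in granules, were at 66.7 and 55.2 FPKM in control cells and had ratios of 0.15 and 0.71. *Timp1*, an inhibitor of these proteases, had a ratio of 1.52, but its intervals overlapped. The upstream sequences of the neighbours *Mmp13* (chr9:7272264-7272513, plus strand) and *Mmp12* (chr9:7347124-7347373, plus strand) are shown with that of *Il1rn* (chr2:24336610-24336859, plus strand), because each holds 1 match to the AP-1 motif TGANTCA, in capitals.
Mmp13: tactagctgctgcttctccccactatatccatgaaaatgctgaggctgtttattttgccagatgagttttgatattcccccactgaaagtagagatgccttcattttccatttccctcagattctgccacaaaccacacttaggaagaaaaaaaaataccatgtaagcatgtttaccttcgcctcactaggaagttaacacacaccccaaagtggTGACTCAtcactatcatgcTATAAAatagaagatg
Mmp12: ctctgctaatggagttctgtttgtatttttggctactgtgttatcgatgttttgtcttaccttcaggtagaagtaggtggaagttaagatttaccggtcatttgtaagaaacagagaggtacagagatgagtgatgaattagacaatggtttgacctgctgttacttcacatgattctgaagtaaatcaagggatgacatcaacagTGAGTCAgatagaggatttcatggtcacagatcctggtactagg
Il1rn: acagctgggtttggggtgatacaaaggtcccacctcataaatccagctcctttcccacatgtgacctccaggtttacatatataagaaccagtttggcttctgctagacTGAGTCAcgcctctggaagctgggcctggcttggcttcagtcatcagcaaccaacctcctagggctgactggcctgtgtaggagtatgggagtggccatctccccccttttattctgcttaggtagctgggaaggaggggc
The match ends 29 bases before the start in *Mmp13* and 38 bases before it in *Mmp12*, and it ends 135 bases before the start in *Il1rn*. On either strand, TGANTCA was found in 4.23% of the 8968 promoters.

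Some inhibitors of MAP kinase and cytokine signalling rose. Of 31 members that encode feedback phosphatases, SOCS proteins and factors of mRNA decay, 10 rose and 1 fell, with a median of 0.55, and with equal totals 9 rose and 2 fell, *Dusp4* being lost and *Dusp6* added. The phosphatase genes moved in both directions. *Dusp1*, whose product inactivates p38 and JNK, went from 14.3 FPKM (10.3 to 18.3) to 128 (90.9 to 146), and *Dusp8*, also a phosphatase of p38 and JNK, from 0.0711 (0.0276 to 0.120) to 12.6 FPKM (9.42 to 15.3). *Dusp16* rose by 2.36, *Dusp5* by 1.54, *Dusp3* by 1.29 and *Dusp4* by 1.04 on the log2 scale. *Dusp7*, whose product acts on ERK, fell from 16.8 (12.6 to 20.4) to 4.30 FPKM (3.05 to 5.31), and *Dusp6*, another ERK phosphatase, was at 10.7 and 5.02 FPKM (-0.96) and was not called. Of the 17 *Dusp* genes among the members, 6 thus rose and 1 fell. *Dusp8* was a member only through its treated value, so that it could not be called lower. Of the 31 members of the list, 28 reached 1 FPKM in control cells. Among mRNA decay factors, *Zfp36l1* rose from 116 to 345 FPKM and *Zfp36* (tristetraprolin) from 63.2 to 158 FPKM. *Socs3*, the inhibitor of IL-6 family receptors, rose from 10.1 to 26.1 FPKM, whereas *Socs1* and *Socs2* were at 179 and 143 FPKM in control cells with ratios of -0.20 and 0.12. The upstream sequences of *Dusp8* (chr7:142095285-142095534, minus strand) and *Dusp1* (chr17:26508473-26508722, minus strand) are shown because they hold the cyclic AMP response element TGACGTCA, in capitals.
Dusp8: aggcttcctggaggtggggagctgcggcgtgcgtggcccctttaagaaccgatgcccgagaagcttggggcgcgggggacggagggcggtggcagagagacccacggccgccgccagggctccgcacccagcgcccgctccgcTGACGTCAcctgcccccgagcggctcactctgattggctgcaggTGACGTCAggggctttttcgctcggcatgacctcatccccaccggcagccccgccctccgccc
Dusp1: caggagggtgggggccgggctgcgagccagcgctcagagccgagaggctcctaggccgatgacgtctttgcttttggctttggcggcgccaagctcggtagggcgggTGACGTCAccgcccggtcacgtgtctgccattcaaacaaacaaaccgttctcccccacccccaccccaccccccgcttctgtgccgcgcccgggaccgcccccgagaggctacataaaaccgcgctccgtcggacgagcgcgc
*Dusp8* holds 2 matches, which end 100 and 56 bases before the start, and *Dusp1* holds 1 that ends 136 bases before it. TGACGTCA was found in 2.84% of the 8968 promoters. Only 280 of the 381 genes called higher (73.5%) had a promoter sequence, against 83.2% of genes called lower and 80.6% of all members. With this uneven coverage, motif shares are not compared here between called and other genes. The promoters of *Dusp8*, *Dusp1*, *Mmp13*, *Mmp12* and *Il1rn* were picked for their matches. Most of the 280 genes called higher with a promoter sequence hold neither TGACGTCA nor TGANTCA there.

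Of 24 AP-1 and ATF transcription factor genes 7 rose, with a median of 0.59, and 5 did with equal totals, without *Atf3* and *Maff*. *Fosl2*, a Fos-related partner of Jun proteins, went from 23.2 (18 to 28.3) to 112 FPKM (85.8 to 136), a ratio of 2.22 that was the highest of the list. *Crem* (16.1 to 58 FPKM), *Junb* (96.0 to 253), *Creb5* (7.78 to 20.3) and *Maff* (8.02 to 17.7) rose as well. *Batf3*, a factor of cross-presenting DCs, was at 106 and 72.4 FPKM (-0.55). Of 31 NF-kappaB genes 5 rose, and the calls rested on ratios of 1.03 to 1.30 in *Tank*, *Rela*, *Rel*, *Nfkbib* and *Nfkb1*, so that 1 was left with equal totals. The inhibitor gene *Nfkbia* was at 101 and 129 FPKM (0.35). In the network of EGR, KLF and MYC genes, *Klf6* rose from 56.9 to 204 FPKM, *Nr4a2* from 1.59 to 8.69 and *Nr4a1* from 3.70 to 10.3. *Klf4*, by contrast, fell from 27.5 (21.6 to 33.4) to 10.2 FPKM (7.80 to 12.6), a log2 ratio of -1.35. *Myc* was at 61.7 and 49.5 FPKM (-0.31). Among p53 targets 5 of 29 rose, and 4 did with equal totals, without *Plk2*. The 5 included *Btg2* (30.4 to 129 FPKM), the polo-like kinase genes *Plk2* and *Plk3*, and *Pmaip1*, which encodes the BH3-only protein Noxa (49.6 to 171 FPKM). *Cdkn1a* (p21) was at 307 and 589 FPKM with a ratio of 0.94, and *Bax* at 177 and 201 FPKM (0.18). In the BCL2 family, *Pmaip1* was the 1 member of 20 that rose.

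C-type lectin genes of chromosome 6 moved in opposite directions within 1 cluster. These genes encode receptors for microbial glycans and other ligands on myeloid cells. From *Clec4a1* to *Clec4e*, 8 members follow each other between 122921848 and 123289871, and the log2 ratio runs from -1.07 in *Clec4a1* and -1.23 in *Clec4a3* to 1.22 in *Clec4n*, 3.21 in *Clec4d* and 2.79 in *Clec4e*. The genes between them were not called, with ratios of -0.73 in *Clec4b1*, -0.90 in *Clec4a2* and -0.15 in *Clec4b2*. *Clec4e* (Mincle) went from 4.49 (3.24 to 5.65) to 36.9 FPKM (28.7 to 44.5), *Clec4d* from 7.72 to 79.5 and *Clec4n* (Dectin-2) from 303 to 708 FPKM. *Clec4a3* went the other way, from 108 (86.8 to 128) to 45.3 FPKM (36.0 to 54.7). Thus *Clec4n*, *Clec4d* and *Clec4e*, which encode receptors for fungal and mycobacterial glycans, rose. The *Clec4a* and *Clec4b* genes of the same cluster fell or had ratios below 0. On the same chromosome *Clec7a* (Dectin-1) rose from 361 to 1150 FPKM together with its neighbours *Olr1*, a receptor of oxidized LDL, and *Gabarapl1*, which functions in autophagy. With equal totals *Gabarapl1* was not called. *Clec12a* in the same group was at 99.5 and 58.5 FPKM (-0.76). In all, 11 of 30 lectin, TREM and CD300 genes rose and 2 fell, and with equal totals 8 rose and 3 fell, without the rises of *Clec4n*, *Treml4* and *Lilrb4* and with *Clec4a2* lower. *Trem1*, an amplifying receptor of myeloid cells, went from 11.1 to 58.1 FPKM, and *Cd300ld*, *Cd300lb* and *Cd300a* of 1 cluster on chromosome 11 rose by 1.97, 1.35 and 1.28. *Gp49a* and *Lilrb4* are near-identical neighbours, and their ratios of 1.37 and 1.09 may share reads, which can also hold within the *Clec4a* genes.

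Some of the called genes lay side by side in the genome. Of the 381 genes called higher, 75 (19.7%) lay directly beside another gene called higher, against 6.21% of the genes not called. For genes called lower the figures were 8 of 125 (6.4%) beside another gene called lower, against 2.16%. The 36 runs of adjacent rises included *Il1a* and *Il1b*, *Ccl2* and *Ccl7*, *Mmp13* and *Mmp12*, *Tuba1a* and *Tuba1c*, and *Txnrd1*, *Chst11* and *Slc41a2*. With equal totals *Slc41a2* was not called, and neighbours were not counted on that scale. The 4 runs of adjacent falls were *Fh1* and *Kmo*, *Wdfy4* and *Arhgap22*, *H2-DMa* and *H2-DMb2*, and *Clec4a1* and *Clec4a3*. Several of these runs are families of related genes, and neighbours were counted among members only, so that genes below 1 FPKM between them were skipped. Some adjacent pairs, *Mmp19* with *Tmem198b* and *Slc15a3* with *Tmem132a*, are listed at the same coordinates and may share reads.

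**Figure D3:**
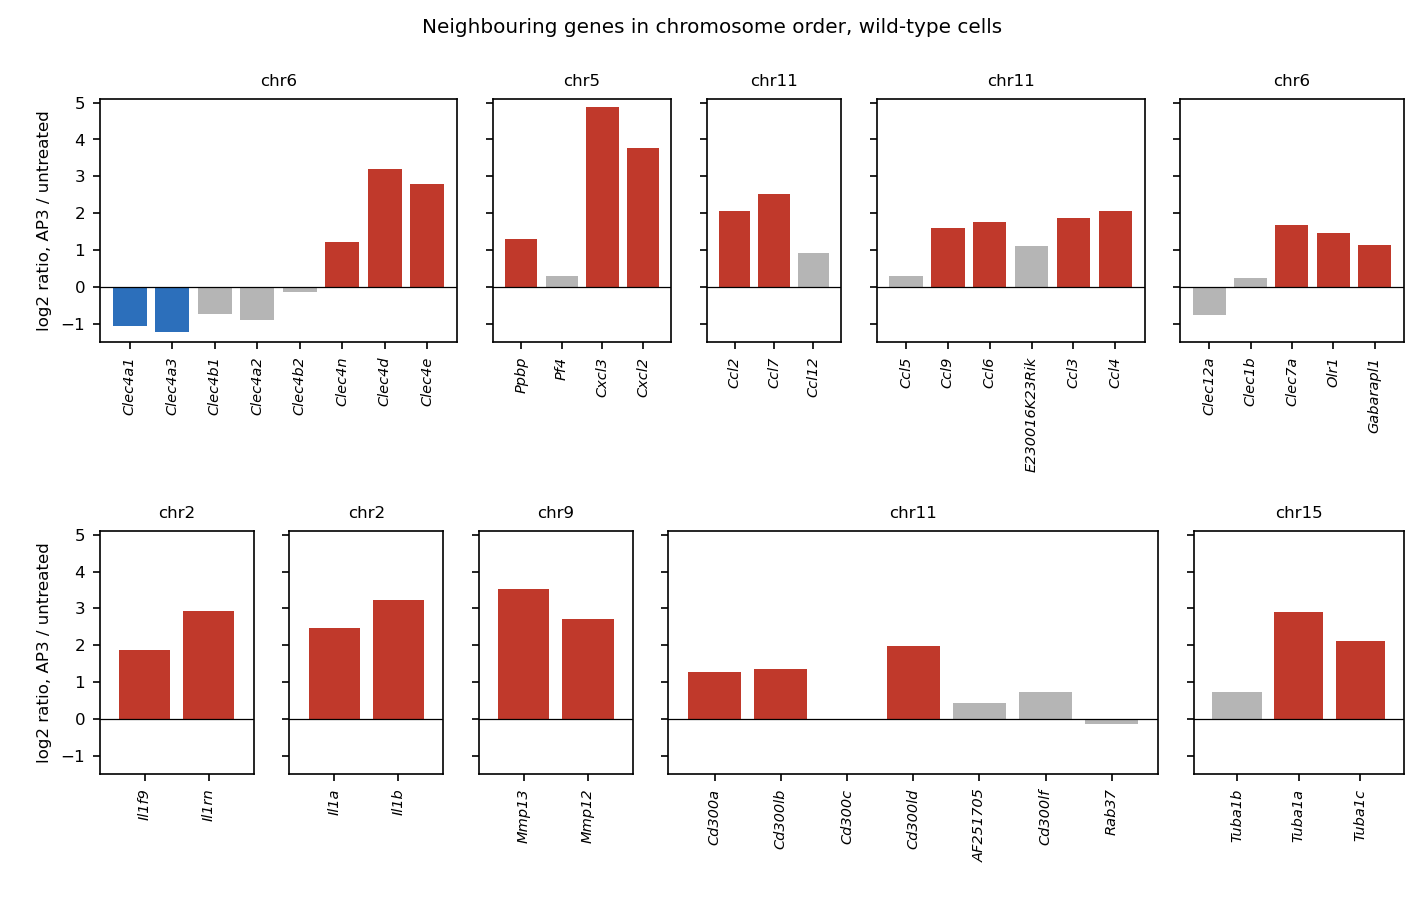
Log2 ratio of AP3-treated to untreated FPKM + 1 for consecutive members in 10 neighbourhoods of WT cells, in the order of the chromosome named above each panel. Bars in red were called higher, in blue lower, and in grey not called. The first panel runs from falls in *Clec4a1* and *Clec4a3* to rises in *Clec4n*, *Clec4d* and *Clec4e*.

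Some genes of oxidative stress defence rose, and the transferrin receptor gene fell. Of 28 members that are targets of the transcription factor NRF2 or handle iron, 8 rose and 1 fell, with a median of 0.51, and 5 rose with equal totals. *Slc7a11*, the cystine importer for glutathione synthesis, went from 12.8 (9.60 to 15.5) to 53.4 FPKM (41.7 to 64.8). The redox enzyme genes *Srxn1* and *Txnrd1* went from 28.1 to 102 and from 70.9 to 205 FPKM, and *Sqstm1* (p62) from 140 to 478 FPKM. The gene of NRF2 itself, *Nfe2l2*, rose from 46.2 to 113 FPKM. Other targets were not called, among them *Nqo1* (10.3 and 12.4 FPKM), *Gclc* (14.4 and 17.7) and *Hmox1* (72.5 and 130, log2 ratio 0.83). *Fth1*, the heavy chain of the iron store ferritin, rose from 1780 (1451 to 2110) to 3727 FPKM (2930 to 4524), a ratio of 1.07 that does not stay past 1 with equal totals. The light chain *Ftl1* was at 5554 and 8367 FPKM (0.59) and the iron exporter *Slc40a1* at 8.34 and 12.6 FPKM (0.54). *Tfrc*, the receptor for iron uptake, fell from 89.2 (67.0 to 108) to 28.3 FPKM (22.2 to 34.2), a ratio of -1.62, whereas *Aco1* and *Ireb2*, the iron regulatory proteins that bind both messages, had ratios of -0.27 and 0.09. The metallothionein *Mt2* was called higher (85.8 and 197 FPKM), with both values outside their own intervals. Among 31 genes of glucose uptake and glycolysis 4 rose, and 1 did with equal totals. The highest ratio of this list was 1.95. *Hif1a* (50.9 to 109 FPKM), the glucose carrier *Slc2a1* (45.5 to 97.7) and the lactate carrier *Slc16a3* (43.9 to 97.2) rose by 1.08 to 1.13, none of which was called with equal totals. Enzymes such as *Gapdh*, *Aldoa* and *Pkm* had ratios of 0.20 to 0.30. *Arg2*, mitochondrial arginase, rose from 6.75 (3.66 to 9.82) to 40.0 FPKM (29.3 to 50.6).

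The drug target family itself responded in part. All 12 alpha- and beta-tubulin genes among the members had ratios above 0, from 0.05 to 2.89, and 7 were called, *Tuba1a*, *Tubb2b*, *Tubb6*, *Tuba1c*, *Tubb2a*, *Tubb3* and *Tubb4b*, the last of which was not called with equal totals. The genes of high level changed less, with *Tubb5* at 326 and 572 FPKM (0.81) and *Tuba1b* at 102 and 168 FPKM (0.71). Tubulin genes are similar in sequence, and how reads shared between them were assigned is not given in the sources used here. Of 35 genes of other tubulins, folding cofactors and microtubule regulators, *Clip2* was the 1 that rose (12.6 to 29.7 FPKM) and was not called with equal totals, and of 34 motor genes it was *Ndel1*, a regulator of dynein (32.3 to 97.6 FPKM). In the actin cytoskeleton, *Tpm4* (183 to 544 FPKM), *Vcl* (24 to 65.8), *Rhob* (18.7 to 77.3), *Filip1l* and *Fhl2* rose, 5 of 29 with a median of 0.67. *Actg1* showed the largest gain in FPKM of all members, from 2615 to 7395, and *Actb* went from 3076 to 6184. Their intervals in treated cells ran from 67.9 to 15684 and from 794 to 11573 FPKM, which is why neither was called. The integrin genes *Itgb3* (25.4 to 79.9 FPKM), *Itga5* (18.9 to 46.0) and *Itgb1* (130 to 292), whose products bind fibronectin, rose, while the leukocyte integrin gene *Itgb2* was at 259 and 332 FPKM (0.36). With equal totals *Itgb1* was not called.

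The chemokine receptor list, which also holds the complement receptor gene *C5ar1*, had 2 rises, *Ccr7* and *C5ar1*, and 1 fall among 15 members. With equal totals the rise of *C5ar1* was the 1 left. Of 15 genes of the B7 family and CD40 4 rose. *Ccr7*, the receptor that guides DCs to lymph nodes, rose from 258 (202 to 312) to 602 FPKM (465 to 730), with a log2 ratio of 1.22 that was 0.98 and not called with equal totals, and *Ccr2*, the receptor for *Ccl2* and *Ccl7*, fell from 136 (100 to 161) to 37.8 FPKM (29.2 to 46.3). In the B7 family *Cd80*, *Cd200*, *Havcr2* (TIM-3) and *Pdcd1lg2* (PD-L2) rose, which include ligands and receptors that restrain T cells or DCs, and *Pdcd1lg2* was not called with equal totals. *Cd86* was at 50.8 and 71.8 FPKM (0.49), *Cd83* at 125 and 154 (0.30) and *Cd274* (PD-L1) at 61.9 and 117 (0.91). None of 24 genes of class I presentation was called, with a median of -0.12, and 1 was called lower with equal totals. Of 16 class II genes 2 fell, and both belong to H2-DM, the protein that loads peptide onto class II. *H2-DMa* went from 158 (124 to 191) to 69.6 FPKM (53 to 85.5) and *H2-DMb2* from 53.3 to 22.9 FPKM. The class II transactivator gene *Ciita* was at 23.4 and 11.3 FPKM (-0.98) and *H2-DMb1* at 94.9 and 48.2 FPKM (-0.96). *H2-Aa*, *H2-Ab1*, *H2-Eb1* and *Cd74* had ratios of 0.09, -0.02, 0.20 and 0.42, and with equal totals 5 class II genes were called lower. Among prostaglandin enzymes the inducible cyclooxygenase gene *Ptgs2* rose from 0.306 to 3.93 FPKM, and the constitutive *Ptgs1* fell from 130 (104 to 156) to 58.7 FPKM (46.8 to 70.5). *Tlr4* rose from 21.6 to 57.3 FPKM beside *Cd14* and *Ticam1*, the last not called with equal totals, and *Tlr11* fell from 3.51 to 0.442 FPKM. *Pycard*, the adaptor of inflammasomes, fell from 100 (79.4 to 120) to 46.8 FPKM (37.2 to 56.0), the 1 call among 21 inflammasome genes. Further falls were *Cd24a* (481 to 200 FPKM) and *Ear2* (663 to 311 FPKM).

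Most genes of ribosome production and DNA replication had ratios a little below 0, and few of them were called. In ribosome biogenesis 41 of 43 members had ratios below 0, with a median of -0.44, but *Dkc1*, a component of the H/ACA particle that modifies ribosomal RNA, was the 1 gene that fell (24.2 to 10.2 FPKM, -1.17). By separated intervals alone, at any size of change, 15 of the 43 were lower and none was higher, against 7.68% lower and 9.36% higher over all members. The RNA polymerase I subunits *Polr1a* and *Polr1b* had ratios of -0.89 and -0.96, and the abundant nucleolar genes *Npm1* and *Ncl* of -0.15 and -0.34. Among genes of G1/S and DNA replication the median was -0.43. *Ccnd1* (cyclin D1) fell from 19.8 (15.5 to 24.1) to 6.10 FPKM (4.87 to 7.34), and 12 of 44 were lower by separated intervals alone. All 6 genes of the MCM2 to MCM7 helicase had ratios from -0.75 to -0.60. For the mitotic spindle and checkpoint the median was -0.14 with no call among 44 members, and *Ube2c* and *Birc5* were at 106 and 77.9 FPKM in control cells with ratios of -0.03 each. With equal totals 6 genes of ribosome biogenesis, 4 of G1/S and none of mitosis were called lower. The 87 cytoplasmic ribosomal protein genes had a median of 0.16 and no call, and this median was -0.08 with equal totals. Interferon-stimulated genes had a median of -0.15 over 41 members, with *Usp18* lower (21.3 to 7.05 FPKM) and *Cxcl10* higher (with equal totals none higher and 4 lower), and the interferon gene *Ifnb1* stayed under 1 FPKM in both groups. In lipid synthesis *Fasn*, fatty acid synthase, fell from 18.5 to 7.88 FPKM.

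**Figure D4:**
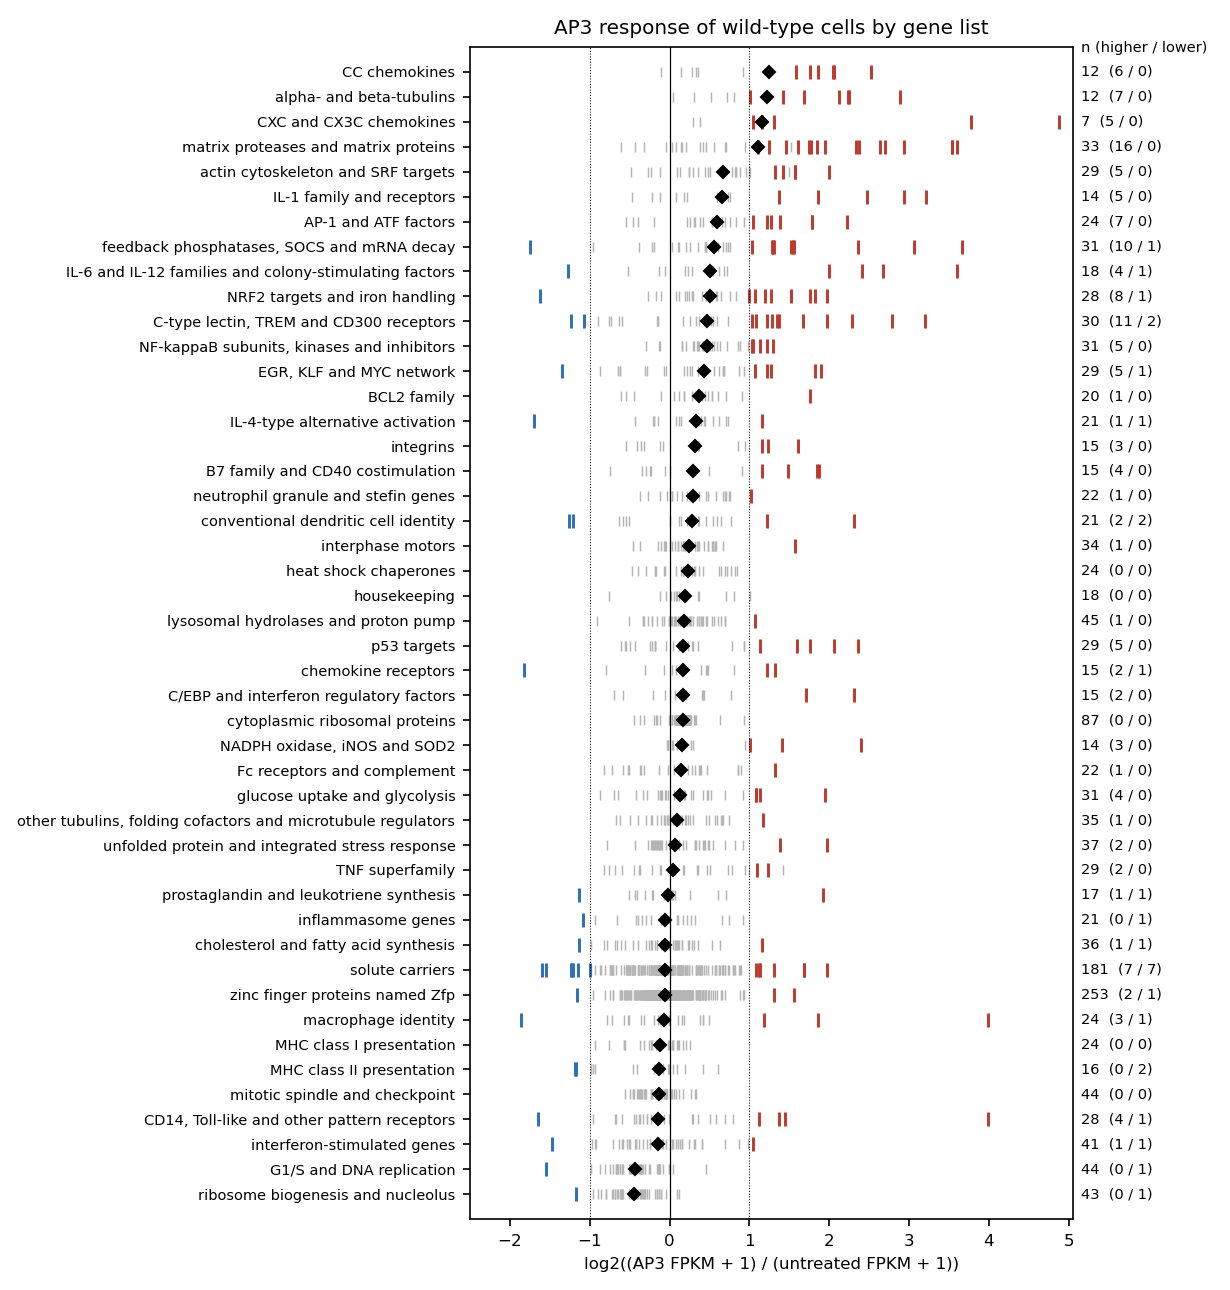
Log2 ratio of AP3-treated to untreated FPKM + 1 in WT cells for each member of 46 gene lists, with called genes in red (higher) or blue (lower), other members in grey and the median of the list as a diamond. Figures at the right give the number of members and, in brackets, how many were called higher and lower. Medians run from -0.44 for ribosome biogenesis to 1.25 for CC chemokines, and those between 0 and 0.2 turn below 0 when the groups are set to equal totals.

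By level in control cells, the share called higher was 3.15% at 1 to 5 FPKM, 3.09% at 5 to 25, 3.45% at 25 to 100 and 4.33% at 100 FPKM or more. Among 185 genes under 1 FPKM in control cells, 22 rose, but such genes were members only because their treated value was high. They included *Ch25h*, which makes 25-hydroxycholesterol (0.769 to 6.44 FPKM), and *Aldh1a3*, an enzyme of retinoic acid synthesis (0.325 to 5.18 FPKM), both chosen after their values were seen. *Dusp8*, *Gm13889*, *Clcf1* and *Ptgs2*, named above, were under 1 FPKM in control cells as well. Conversely, 302 genes were members only through control cells, and 23 of these fell. The nearest ratios inside the threshold were those of *Map4k4*, *Prdx1* and *Sp140*, each 1.001, and the nearest called falls included *Slc29a2* (-1.00001) and *Zbtb12* (-1.008). Just outside stood *Osbpl8*, *Dennd3* and *Gpr65*, each 0.997, and *Gpd1l*, *Tmem37* and *Hpse* at -0.998, -0.996 and -0.995. By the fold limit alone 396 genes (3.56%) were above and 130 (1.17%) below it, of which 15 and 5 had overlapping intervals. Protein-coding genes made up 97.9% of the genes called higher and 97.6% of those called lower, near their share of 96.7% among all members. The 5 long noncoding RNA genes that rose were *Mir22hg* (7.19 to 40.0 FPKM), *Gm19510* next to *Trib1*, *Gm10872*, *C920009B18Rik* and *Gm19434*, and the 2 that fell were *2610507I01Rik* and *B230217C12Rik*, all named after their values were seen.

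In cells without GEF-H1, 66 members (0.593%) were called higher and 3 (0.027%) lower. Of the 381 genes that rose in WT cells, 65 (17.1%) were also called higher in GEF-H1-/- cells, which is 98.5% of the 66. The median ratio of these 381 genes in GEF-H1-/- cells was 0.60, beside 1.35 in WT cells. For the 125 genes that fell in WT cells it was -0.46, beside -1.21. Both sets were chosen by their WT values, so that smaller values in the other genotype are partly built in. The control and treated groups of each genotype are separate libraries, but no test of the difference between genotypes was possible with pooled values. The genes above differed in how large their ratio was without GEF-H1. It was 2.61 for *Dusp8*, 2.60 for *Gdf15*, 2.31 for *Dusp1* and 1.95 for *Stk38l*, each called, against 3.67, 3.22, 3.07 and 3.07 in WT cells. For the tubulins *Tubb2b*, *Tubb2a* and *Tubb3* it was 2.79, 1.73 and 1.74, above the WT ratios of 2.25, 1.68 and 1.42, and for *Tuba1a*, *Tuba1c* and *Tubb6* it was 2.40, 1.77 and 1.80, below the WT ratios of 2.89, 2.12 and 2.24. Ratios below 0.5 without GEF-H1 were found for *Il1rn* (0.47), *Clec4d* (0.42), *Arg2* (0.14), *Itgb3* (0.08), *Il1r2* (0.07), *Mmp19* (-0.05) and *Nr4a1* (0.01). Among genes that fell in WT cells, the ratio was -0.38 for *Tfrc*, -0.51 for *Ccr2*, -0.79 for *Dusp7*, -0.08 for *Ccnd1* and -0.02 for *Wdfy4*. The medians of ribosome biogenesis and of G1/S genes were -0.05 and -0.16, beside -0.44 and -0.43 in WT cells, and -0.01 over all members. For some genes the control levels also differed between genotypes. Control WT and GEF-H1-/- cells had 7.72 (5.81 to 9.61) and 17.6 FPKM (14.1 to 21.2) of *Clec4d*. For *Mmp13* the levels were 1.63 (1.16 to 2.09) and 31.2 FPKM (24.8 to 37.5). Those of *Il1b* were close, at 25.2 (20.1 to 30.3) and 22.8 FPKM (18.3 to 27.4). The part of control levels in the ratios was not tested.

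**Figure D5:**
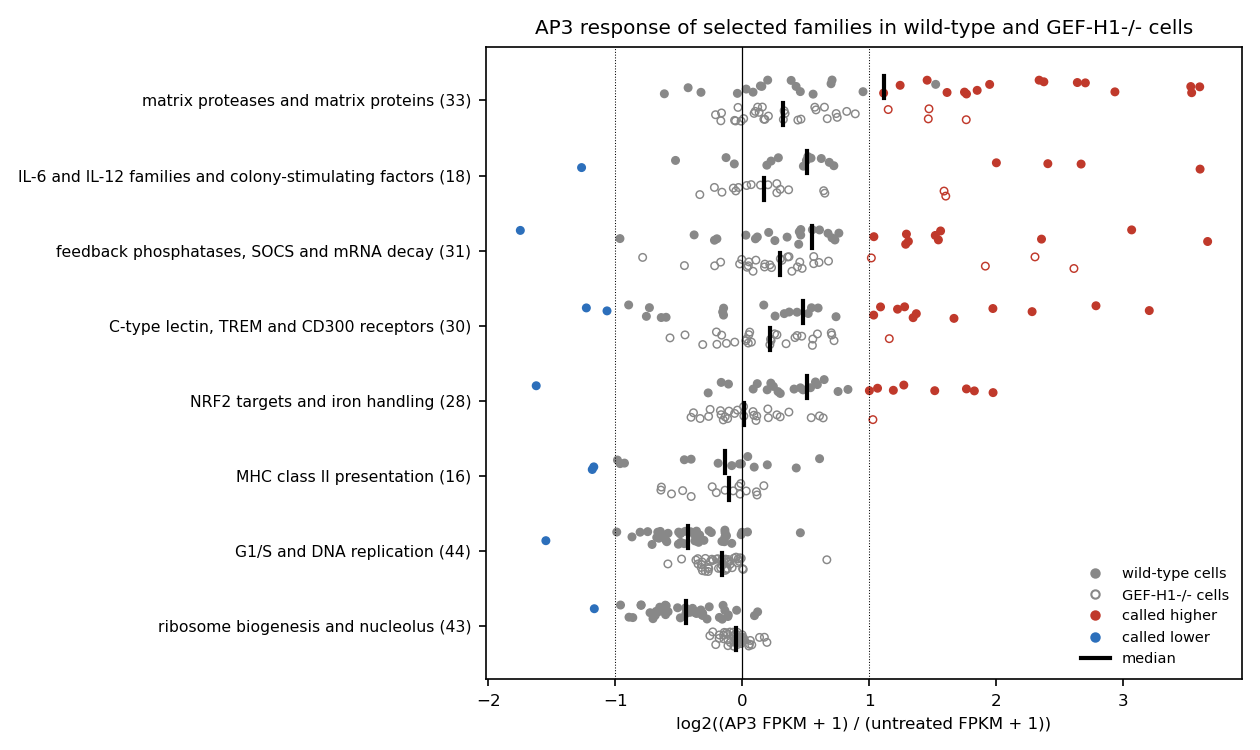
Log2 ratio of AP3-treated to untreated FPKM + 1 for the members of 8 gene lists in WT cells (filled points) and GEF-H1-/- cells (open points), with called genes in red (higher) or blue (lower) and the median as a black bar. The WT median of the matrix list lies at 1.11 and that of ribosome biogenesis at -0.44, while the 8 medians of GEF-H1-/- cells lie nearer to 0.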

How the data were processed

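RNA-seq libraries were made by the authors with a stranded kit for polyadenylated RNA and sequenced as paired ends. The deposited table holds FPKM that the authors computed with Cuffdiff 1.05 (mm10, per the submitters' processing notes), merging 2 libraries into 1 value per gene for each of 4 groups, with 95% bounds and a status. The aligner and annotation behind it are not given in the sources used here. The WT columns name no genotype and were assigned by elimination. All columns with measured levels were mapped to a group, and 0 stayed without use. The study's methods give a target depth, and the depth reached is unknown, since FPKM keeps no fragment numbers.

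Of 23356 genes, 107 had a status other than OK in a WT group, 773 were microRNA or snoRNA genes, and 11127 were left at a minimum of 1 FPKM. The log2 ratio used a pseudocount of 1 FPKM, which understates changes of low genes. A call needed a ratio past 1 or -1 and separate intervals, so no replicated test was made. The members and gene lists were chosen with earlier results of these data known. Named genes were *Arhgef2*, the 15 largest rises and falls of at least 5 FPKM, the 10 largest gains and losses in FPKM, members of the lists (called ones first, then those of highest FPKM), the genes nearest the threshold, genes the study names and called neighbours. Gene starts in the table count from 0 and are given from 1. Promoters and gene types came from RefSeq (GRCm38.p6), and promoter sequences matched 8968 members. The calling step was tested on simulated data with planted changes well past the limit and intervals of fixed relative width. Such a check does not measure how often calls are wrong in these data. Python 3.11.15, pandas 2.3.3, numpy 2.4.6 and matplotlib 3.10.9 were used. Alternatives were other pseudocounts, filters, scales and call rules. Some genes that the rule for named genes selects are not reported here.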

Additional observations from a re-analysis of the deposited data

Results flagged for a closer look

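The microRNA and snoRNA genes were left out of the members, and their sum differed between the WT groups. Their summed FPKM was 50802 in control and 80248 in AP3-treated WT cells, and 59146 and 61488 in control and treated GEF-H1-/- cells. Of 58 such genes at 1 FPKM or more, 31 were listed at 0 in 1 of the WT groups, and none was called. *Mir5109* alone went from 31727 to 57890 FPKM, with both values far above their own intervals (253 to 449 and 262 to 463 FPKM). No fold is given for the genes listed at 0.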

How the results depend on the processing

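No paired analysis was possible because the deposited columns are pooled over the libraries of a group and carry no replicate numbers, and for the same reason no library could be left out in turn. The counts of genes called higher and lower, 381 and 125, were 499 and 327 with a pseudocount of 0.1 FPKM and 246 and 38 with a pseudocount of 5 FPKM. They were 241 and 329 when both groups were set to the same total, and 375 and 126 when the treated group was set to a median ratio of 1. By intervals apart alone they were 1041 and 855, with a limit of 0.58 they were 950 and 740, and with a limit of 2 they were 64 and 2. Filters on low values, the fold limit alone, leaving out values outside their own interval and keeping small RNA genes gave 356 to 396 higher and 98 to 130 lower. With a pseudocount of 1 FPKM, a gene under 1 FPKM in both groups cannot pass the limit. Removing the filter could therefore not change the counts. The cause of the shift in totals was not tested. Of the medians of 56 lists under other pseudocounts, filters and scales, 389 moved by less than 0.60, the median half-width of a log2 ratio by the Cuffdiff bounds, and none of the others changed sign. The 3 others were those of CXC and CC chemokines and of the matrix list without a filter (0.29, 0.33 and 0.48). The limit of 0.60 is the half-width for a single gene and is larger than most of the medians. Equal totals shift a ratio by at most 0.24, so that setting could not pass the limit. The count of 389 is therefore no measure of how stable the medians are. In 15 lists a median above 0 turned below 0 with equal totals. Of 244 ratios of 61 named genes, 214 kept their call, 18 lost it and 12 gained it, and the sign changed in 1, that of *S100a9* (0.21, and -0.02 with equal totals). The rescaled values of named genes and the calls within lists were added after the data were seen.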

Other observations

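Among 181 solute carrier genes 7 rose (3.87%) and 7 fell (3.87%), beside 3.42% and 1.12% over all members, with a median of -0.06, and with equal totals 4 rose and 12 fell. Among 253 zinc finger genes named *Zfp*, 2 rose and 1 fell, with a median of -0.06. None of 24 heat shock chaperone genes and none of 18 housekeeping genes was called, with medians of 0.23 and 0.19 that were 0.00 and -0.05 with equal totals. The cytosolic chaperones *Hspa8* and *Hsp90ab1* were at 1475 and 755 FPKM in control cells, with log2 ratios of -0.07 and 0.18. In the unfolded protein and integrated stress response, *Slc7a11* and *Ppp1r15a*, a phosphatase subunit that restores translation, were the 2 of 37 genes that rose, and the endoplasmic reticulum chaperone *Hspa5* was at 338 and 339 FPKM. Of 45 lysosomal genes 1 rose, the galactosidase gene *Gla* (6.77 to 15.3 FPKM), which was not called with equal totals. Among 14 genes of NADPH oxidase and related enzymes 3 rose, and 2 did with equal totals, without *Gch1*. Beside *Arg2*, *Irg1*, which makes itaconate, rose from 5.42 to 16.1 FPKM and *Gch1*, which acts in synthesis of the cofactor of nitric oxide synthase, from 10.3 to 21.7 FPKM.

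Among 22 genes of neutrophil granules and stefins, *Stfa2* was called higher (365 and 740 FPKM), with both values outside their own intervals, and it was not called with equal totals. Stefin genes are near-identical copies. The alarmins *S100a8* and *S100a9* had the highest levels of all members in control cells, 19401 and 10678 FPKM, and log2 ratios of 0.25 and 0.21, and the values of *S100a8* were outside their own intervals. Of 22 Fc receptor and complement genes *C5ar1*, the receptor of complement fragment C5a, was the 1 that rose (33.1 to 83.9 FPKM). Among 24 macrophage genes 3 rose, *Cd14*, *Gpr137b* and *Dcstamp*, which functions in cell fusion (55.7 to 205 FPKM), and *Mertk* fell, and among 21 genes of alternative activation *Pdcd1lg2* rose and the coactivator gene *Ppargc1b* fell from 6.18 to 1.21 FPKM. The median of the macrophage genes was -0.07. With equal totals 2 of them rose, without *Gpr137b*, and 2 fell, and *Pdcd1lg2* was not called.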
